A study of Mus musculus with 8 samples.

Results

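*Jun*, *Junb* and *Jund* are the genes of the JUN family of transcription factors, and they were followed here as the 3 rows with these names among the 50600 rows of an RNA-seq table. The cells were JUN TetON ESCs, an OG2 line of mouse ES cells on a mixed 129SVJ, C57B6 and CBA background that makes JUN from a transgene when doxycycline is given. All cells were at passage 12, were grown without feeders in medium with LIF, PD0325901 and Chir99021, and received 2 μg/ml doxycycline. The labels give 6 h of doxycycline with the solvent DMSO alone, with PFI-3, with BI-9564 or with both compounds (P+B), and there were 2 libraries for each of the 4 groups. A legend in the study's supplement gives a longer induction of JUN than the labels do. PFI-3 binds the bromodomain of BRG1 and its relatives, the ATPases of BAF chromatin remodelling complexes, and BI-9564 binds the bromodomains of BRD9 and BRD7, which are subunits of BAF-type complexes. No library without doxycycline was analysed here, and whether the line was a clone is not given in the sources used here. The *Jun* value therefore holds the induced transgene and the cells' own gene together, in the controls as in the treated cells.

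The JUN proteins are basic leucine zipper factors. They pair with each other or with FOS, FRA and ATF proteins to form AP-1, which binds short palindromes such as TGANTCA. JUN is a strong activator that is switched on within minutes to hours by growth factors and stress, and it is phosphorylated by the JNK kinases. JUNB is also an immediate early gene product but a weaker activator that can oppose JUN, while JUND is made more steadily in many tissues. In mouse ES cells, forced JUN pushes the cells out of pluripotency.

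All 3 genes are short and have no intron in the protein-coding transcript (GENCODE M21, GRCm38). *Jun* (ENSMUSG00000052684.4) lies on the minus strand of chromosome 4, from 95049034 to 95052222, and the coding sequence takes 31.4% of the 3189 bases of its transcript. *Junb* lies on the minus strand of chromosome 8, from 84974484 to 84978718, with a coding transcript of 1 exon and 1809 bases. *Jund* lies on the plus strand of the same chromosome, from 70698949 to 70700616, as 1 exon of 1668 bases. A transgene that carries less of the *Jun* transcript than this model would be scaled by the wrong length, and its sequence is not given in the sources used here.

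The proteins translated from these transcripts have 334 residues for JUN, 344 for JUNB and 341 for JUND. JUN and JUND were the closest pair, with 52.2% identical aligned positions, against 46.6% for JUN and JUNB and 43.4% for JUNB and JUND. Over about the last 100 residues, where the DNA-binding and zipper parts lie, identity was 76.2%, 68.0% and 66.0% in the same order, and over the rest it was 42.5%, 37.5% and 35.1%. At the level of RNA the genes shared little. The longest identical runs between coding transcripts bear on whether reads could be split between the genes, and they are shown from 5′ to 3′ with no part in capitals.
*Jun* and *Jund*: gagccgcagaccgtgccgga
*Jun* and *Junb*: gagcaggagggctt
*Junb* and *Jund*: gtggcgcagctcaa
The longest of these was 20 bases, so stretches that the genes have in common were short.

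The promoters of *Jun* and *Junb* are shown because the members differ in which AP-1 and ATF type motifs lie before their starts. The sequences are RefSeq's, on GRCm38.p6, and cover the 250 bases before the start on the strand of the gene, 5′ to 3′, with motif matches in capitals.
*Jun*, chr4:95052223-95052472, minus strand: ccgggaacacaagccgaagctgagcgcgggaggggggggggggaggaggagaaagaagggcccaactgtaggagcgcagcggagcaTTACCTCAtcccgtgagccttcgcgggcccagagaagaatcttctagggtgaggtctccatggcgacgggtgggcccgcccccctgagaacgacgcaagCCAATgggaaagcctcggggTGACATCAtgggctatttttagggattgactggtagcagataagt
*Junb*, chr8:84978749-84978998, minus strand: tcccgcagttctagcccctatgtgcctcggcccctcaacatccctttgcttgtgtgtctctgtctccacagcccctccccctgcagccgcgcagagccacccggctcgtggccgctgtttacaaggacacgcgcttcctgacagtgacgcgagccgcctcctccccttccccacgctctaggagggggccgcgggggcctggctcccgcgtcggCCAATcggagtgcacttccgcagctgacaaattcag
The motifs searched on both strands were TGANTCA (the AP-1 site), TGACNTCA (the site of CREB and ATF proteins, which JUN and ATF2 pairs also bind), TTACNTCA (a variant of it) and CCAAT. The *Jun* window held TGACATCA from 45 to 38 bases before the start and TTACCTCA from 164 to 157 bases before it, with CCAAT from 65 to 61. The *Junb* window held only CCAAT, from 36 to 32 bases before the start. Of 32851 promoter windows of the same length, 7.49% held TGACNTCA, 2.86% held TTACNTCA, 6.75% held TGANTCA and 33.8% held CCAAT. The *Jund* window in RefSeq ends 1210 bases before the GENCODE start, held none of the motifs and is not shown. A match is a description of letters and not of a bound site. The *Jun* window belongs to the cells' own gene, while the *Jun* values hold the induced transgene as well. Whether the motifs bear on the values was not tested.

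*Jun* was by far the most abundant member, in every library (the plot of TPM by library). TPM is scaled to the library total and by transcript length, so that levels can be set side by side between genes, with the limit for *Jun* that the length of the transgene transcript is unknown. *Jun* was at 1970 and 2877 TPM in DMSO, while PFI-3 gave 1570 and 2227, BI-9564 gave 2071 and 3011 and P+B gave 1569 and 2159, replicate 1 first. It ranked between 35 and 89 among all genes and made up 81.6% to 91.5% of the summed TPM of the family. The groups overlapped in all 6 pairings, and replicate 2 stood above replicate 1 in each group.

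*Junb* was the least abundant member. It was at 48 and 45 TPM in DMSO, while PFI-3 gave 33 and 39, BI-9564 gave 31 and 25 and P+B gave 26 and 29. Both DMSO libraries were above all 6 others, both PFI-3 libraries were above the BI-9564 and P+B libraries, and the last pair of groups overlapped. *Jund* lay between the other members, at 367 and 310 TPM in DMSO, while PFI-3 gave 320 and 276, BI-9564 gave 290 and 253 and P+B gave 251 and 219. For *Jund*, DMSO lay above BI-9564 and P+B, both PFI-3 and BI-9564 lay above P+B, and DMSO overlapped with PFI-3 and PFI-3 with BI-9564. Libraries that do not overlap are common with 2 per group. The shares that follow are for single pairs of groups. How many tested genes had both DMSO libraries above all 6 others, as *Junb* did, was not counted. Of all tested genes, 47.5% did not overlap between P+B and DMSO, 29.3% between PFI-3 and DMSO, 41.2% between BI-9564 and DMSO, 42.7% between P+B and PFI-3, 31.4% between P+B and BI-9564 and 40.5% between BI-9564 and PFI-3.

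**Figure D1:**
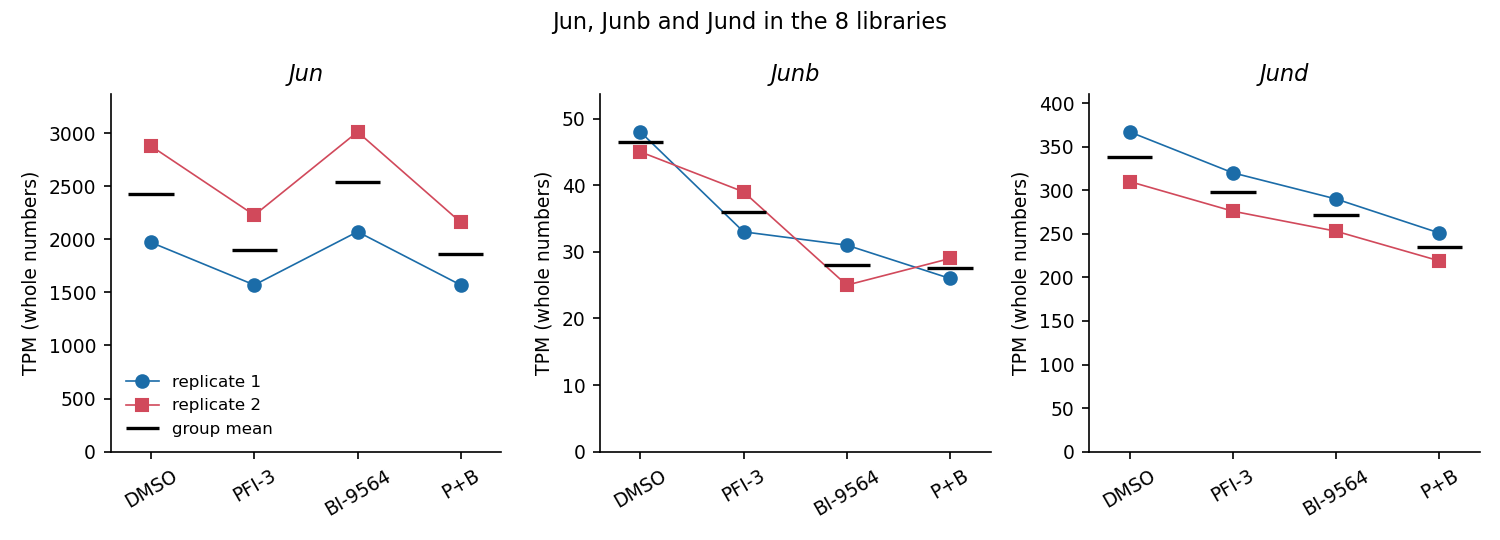
TPM (whole numbers, linear axis from 0) of *Jun*, *Junb* and *Jund* in the 8 libraries, with the 4 treatments on the x axis, lines joining libraries with the same replicate number and black bars for the mean of 2 libraries. Replicate 2 of *Jun* lies above replicate 1 in each treatment, *Junb* is highest in DMSO at 45 and 48 TPM, and *Jund* goes down from DMSO to P+B in both replicate series.

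The order of the group means differed between the members. For *Jun* it was BI-9564 (2541 ± 665 TPM, SD, n = 2), DMSO (2423.5 ± 641), PFI-3 (1898.5 ± 465) and P+B (1864 ± 417), and neighbours in it did not differ beyond the spread of their libraries, although within same-numbered pairs PFI-3 lay below DMSO by a like amount in both (blocked 95% interval −0.44 to −0.26 in log2, adjusted p = 0.116). For *Junb* it was DMSO (46.5 ± 2.12 TPM), PFI-3 (36 ± 4.24), BI-9564 (28 ± 4.24) and P+B (27.5 ± 2.12). For *Jund* it was DMSO (338.5 ± 40.3 TPM), PFI-3 (298 ± 31.1), BI-9564 (271.5 ± 26.2) and P+B (235 ± 22.6). In the last 2 orders, the neighbours that lay apart without overlap were DMSO and PFI-3 and PFI-3 and BI-9564 for *Junb*, and BI-9564 and P+B for *Jund*, and none of these passed the test across all genes.

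The first comparison asked how the combined inhibition of both bromodomain groups bore on the family while JUN was induced. *Junb* fell with P+B, and it was the only member called, at an adjusted p under 0.05 and a fold of at least 1.5. Its log2 difference from DMSO on the log2(TPM + 1) scale was −0.74 ± 0.154 (SE, 95% interval −1.09 to −0.39), or 0.599-fold, with an adjusted p of 0.037 by limma with Benjamini-Hochberg adjustment over 10222 genes. It was lower in 2 of 2 same-numbered pairs, at 0.542 and 0.644 of DMSO. The share of all tested genes called was 4.00%, with 2.72% lower and 1.28% higher. Of the genes called, 32.0% were higher, against 21.0% after quantile normalization, 17.7% after median centring and 41.6% with the replicate number as a block, so the share moved with the scaling and with the block, and lower calls were the majority in each. In these bulk samples, fewer cells that express a gene and less RNA per cell cannot be told apart.

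The *Junb* call was close to the threshold. It held in 7 of 18 alternative settings, with adjusted p from 0.0203 to 0.158 and the same sign in all 18. It was lost when DMSO replicate 1 or 2, PFI-3 replicate 1 or 2, BI-9564 replicate 1 or P+B replicate 1 or 2 was left out, with adjusted p from 0.0502 to 0.158, and the adjusted p was 0.0497 without BI-9564 replicate 2. Each such fit has fewer residual degrees of freedom. With the replicate number as a block the adjusted p was 0.0224, and 7.02% of genes were called.

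*Jund* was 0.696-fold of DMSO with P+B (log2 −0.52 ± 0.124, interval −0.81 to −0.24), and the adjusted p was 0.0537, just over the threshold. In the same-numbered pairs it was at 0.684 and 0.706 of DMSO. With the replicate block the SE was 0.0535 and the adjusted p 0.00156, but the fold did not reach 1.5. *Jun* was 0.773-fold of DMSO (log2 −0.37 ± 0.258, interval −0.96 to 0.22, adjusted p = 0.437). Leaving out DMSO replicate 1 or 2 moved this to −0.64 or −0.10, and leaving out P+B replicate 1 or 2 to −0.14 or −0.60. The pairs gave 0.796 and 0.750, so the change was alike in both replicate series, and with the block the SE was 0.0378 and the adjusted p 0.00156, again with a fold under 1.5. With the block, 11.6% of all tested genes had an adjusted p under 0.05 at any fold. Of 12 ES cell markers, 6 were below DMSO with P+B (median log2 difference −0.04, beside 0.06 for all tested genes). Without the block only *Tdgf1* of these markers was called, lower with P+B. The part of the markers in the values of the members was not tested.

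With PFI-3 alone no member was called, and no gene at all was (0.00% of tested genes, against 694 genes at an unadjusted p under 0.05, limma). The log2 differences from DMSO were −0.35 for *Jun*, −0.36 for *Junb* and −0.18 for *Jund*, with adjusted p of 0.876, 0.72 and 0.856. Without each library in turn they ran from −0.62 to −0.08 for *Jun*, from −0.48 to −0.25 for *Junb* and from −0.30 to −0.06 for *Jund*, with the extremes of *Jun* and *Jund* when a DMSO library was left out. *Jun* was at 0.797 and 0.774 of DMSO in the same-numbered pairs, about as low as with P+B. With the block its unadjusted p was 2.28e-05, but its adjusted p was 0.116, in a comparison in which no gene was called with the block either (1143 at an unadjusted p under 0.05). In the same libraries 11 of 12 ES cell markers were above DMSO (median log2 difference 0.36, beside 0.02 for all tested genes, none called), and the part of this in the *Jun* values was not tested.

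With BI-9564 alone no member was called, where 0.108% of tested genes were. *Junb* was at 0.608-fold of DMSO (log2 −0.72 ± 0.154, interval −1.07 to −0.37), close to its value with P+B, with an adjusted p of 0.12 without the block and 0.054 with it. *Jund* was at 0.804-fold (log2 −0.32 ± 0.124), with an adjusted p of 0.299, or 0.0335 with the block, under which 2.78% of genes had an adjusted p under 0.05 at any fold. *Jun* lay slightly above DMSO, at 1.05 of DMSO in each of the 2 same-numbered pairs (log2 0.07, interval −0.52 to 0.66, adjusted p = 0.925). Of the 12 ES cell markers, 11 were below DMSO (median −0.17, beside 0.02 for all tested genes), with none called without the block. With the block *Tdgf1* was called lower, where 1.53% of tested genes were called. The part of these markers in the *Jund* value was not tested.

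P+B was then set against each compound alone. Against PFI-3, where 1.31% of genes were called, *Jun* was at 0.999 and 0.969 of the same-numbered library, and the interval of the difference was −0.61 to 0.57 in log2, or −0.11 to 0.07 with the block. *Junb* and *Jund* had log2 differences of −0.37 and −0.34 (adjusted p = 0.279 and 0.227). For *Jund* the adjusted p with the block was 0.0153, where 5.62% of genes were under 0.05 at any fold. Against BI-9564, where 0.196% of genes were called, *Jun* was the member with the lowest value relative to the other group. *Junb* was at −0.02 (interval −0.37 to 0.33) and *Jund* at −0.21 (adjusted p = 0.774), while *Jun* was at −0.44 (adjusted p = 0.769, or 0.00635 with the block, where 0.968% of genes were under 0.05 at any fold). This value of *Jun* ran from −0.71 to −0.17 without each library in turn, lowest and highest without BI-9564 replicate 1 and 2.

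The 2 compounds were also set against each other. *Jun* was higher with BI-9564 than with PFI-3 in both same-numbered pairs, at 1.32 and 1.35 times (log2 0.42 ± 0.258, adjusted p = 0.525, or 0.00961 with the block). Without BI-9564 replicate 1 or 2 the log2 difference was 0.69 or 0.15, and without PFI-3 replicate 1 or 2 it was 0.17 or 0.67. Here 0.108% of genes were called, and 2.51% had an adjusted p under 0.05 at any fold with the block. *Junb* was at −0.35 and *Jund* at −0.13 (adjusted p = 0.352 and 0.679), so the direction of *Jun* was not that of its relatives. Whether the genes differed from each other in their response was not tested. The 12 ES cell markers were all lower with BI-9564 than with PFI-3 (median −0.64, beside 0.00 for all tested genes), and *Tdgf1*, a co-receptor of NODAL, was called, with 101 and 76 TPM in the BI-9564 libraries against 221 and 196 in those with PFI-3. Between BI-9564 and PFI-3 no gene was called with a filter of a mean of at least 1 or with no filter. With no trend or only the groups compared none was called either, so the *Tdgf1* call was lost in all of these settings. *Tdgf1* was also called lower with P+B (82 and 84 TPM) than with PFI-3 or DMSO (163 and 156 TPM). In these comparisons 1.31% and 4.00% of tested genes were called. With only the groups compared, no gene was called in those comparisons. With the block 6 of the 12 were called lower with BI-9564 than with PFI-3, where 1.48% of tested genes were called. They were *Nanog*, *Esrrb*, *Zfp42*, *Klf4*, *Tfcp2l1* and *Tdgf1*. With the block *Esrrb* was called higher with P+B than with DMSO or BI-9564, where 7.02% and 0.802% of tested genes were called. The part of these markers in the values of the members was not tested.

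An interaction term set the P+B response against the responses to PFI-3 and to BI-9564 added up. The labels give no dose for PFI-3 or BI-9564, and if P+B held less of either compound than the single treatments did, this sum is not what P+B would give by addition. The log2 differences from that sum were −0.09 ± 0.365 for *Jun*, 0.35 ± 0.218 for *Junb* and −0.03 ± 0.176 for *Jund*, with adjusted p of 1 in limma. The intervals ran from −0.93 to 0.74, from −0.15 to 0.84 and from −0.43 to 0.38. No gene of the table was called (0.00%, with 333 at an unadjusted p under 0.05).

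**Figure D2:**
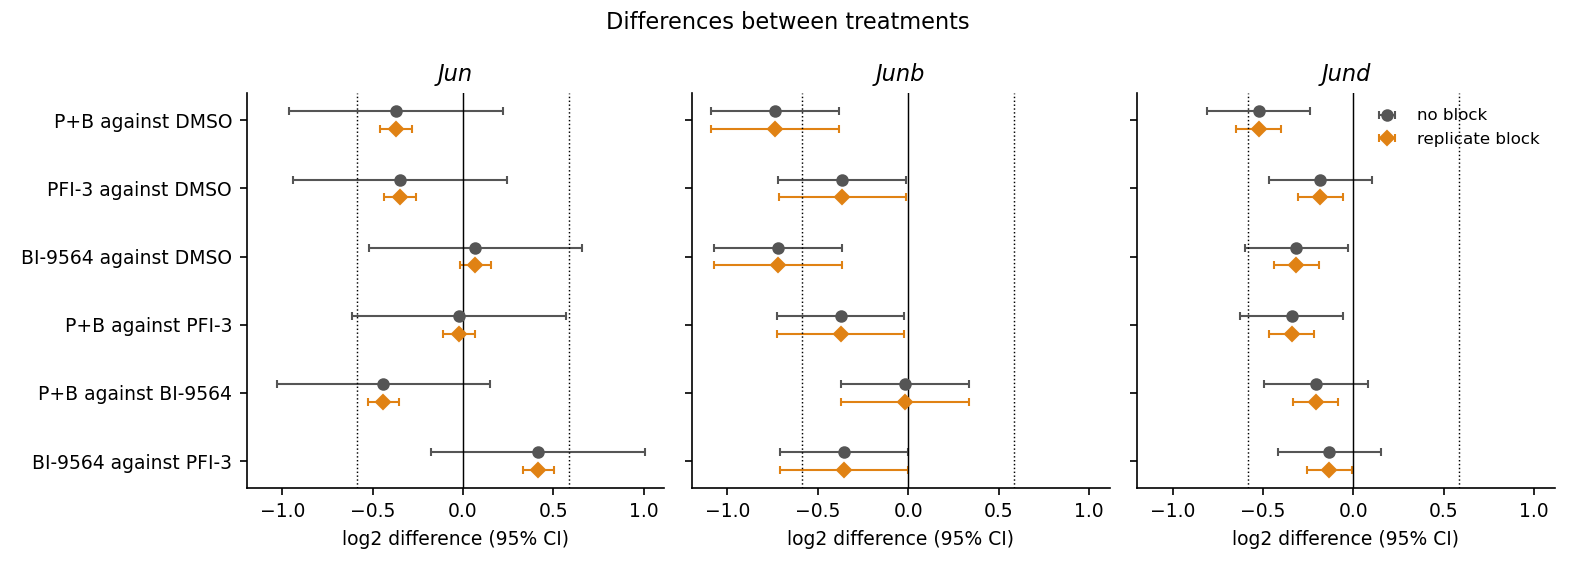
Log2 differences of *Jun*, *Junb* and *Jund* in 6 comparisons of treatments, on the log2(TPM + 1) scale, with 95% intervals, fitted without (grey circles) and with (orange diamonds) the replicate number as a block. Dotted lines mark a fold of 1.5. The intervals of *Jun* and *Jund* shorten with the block, while those of *Junb* keep their width.

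The replicate series set *Jun* apart from its relatives. In replicate 2 it was higher than in replicate 1 in 4 of 4 treatments, by 1.38 to 1.46 times, and the mean log2 difference was 0.51 ± 0.0267 (adjusted p = 0.000382, limma). *Jund* was lower in 4 of 4, at 0.845 to 0.873 times, with −0.21 ± 0.0379 (adjusted p = 0.027). *Junb* was higher in 2 and lower in 2 (−0.00 ± 0.107, adjusted p = 0.998). Neither *Jun* nor *Jund* reached a fold of 1.5. In this comparison 1.32% of genes were called and 3.77% had an adjusted p under 0.05 at any fold. Without each library in turn and under the other settings, the adjusted p of *Jun* ran from 0.000182 to 0.0473 and that of *Jund* from 0.0177 to 0.177. As a result, *Jun* was 4.91 to 7.14 times as abundant as *Jund* in the replicate 1 libraries and 8.07 to 11.9 times in those of replicate 2.

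Markers of the ES cell state moved with the same split (the plot of replicate differences). Of 12 ES cell markers, 11 had a log2 difference below 0 in replicate 2 (median −0.36, beside −0.01 for all tested genes), and *Nanog* and *Zfp42*, a core factor and a marker of naive pluripotency, were called lower, where 0.763% of genes were. *Nanog* was at 71 and 40 TPM in DMSO, while PFI-3 gave 106 and 57, BI-9564 gave 59 and 29 and P+B gave 68 and 46. The summed TPM of the 12 markers was 4707 to 5580 in replicate 1 and 3651 to 4534 in replicate 2. Their part in the *Jun* and *Jund* differences was not tested, and the labels do not say what the replicate number stands for. *Pou5f1*, which encodes OCT4, was at 1104 to 1333 TPM throughout, and the 8 fibroblast markers summed to 5 TPM at most, with 4 of them at 0 in all libraries. Markers of primitive endoderm summed to 3 to 10 TPM, of trophectoderm to 14 to 27 and of neural cells to 76 to 129. Of 4 neural markers 2 were tested. Among all these markers *Tubb3* (a neuronal tubulin) was called, higher with P+B (87 and 103 TPM) than with DMSO (54 and 69 TPM). In that comparison 1.28% of tested genes were called higher, and with only the groups compared no gene was called. Whether the *Tubb3*, *Nanog* and *Zfp42* calls hold without each library was not looked at.

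**Figure D3:**
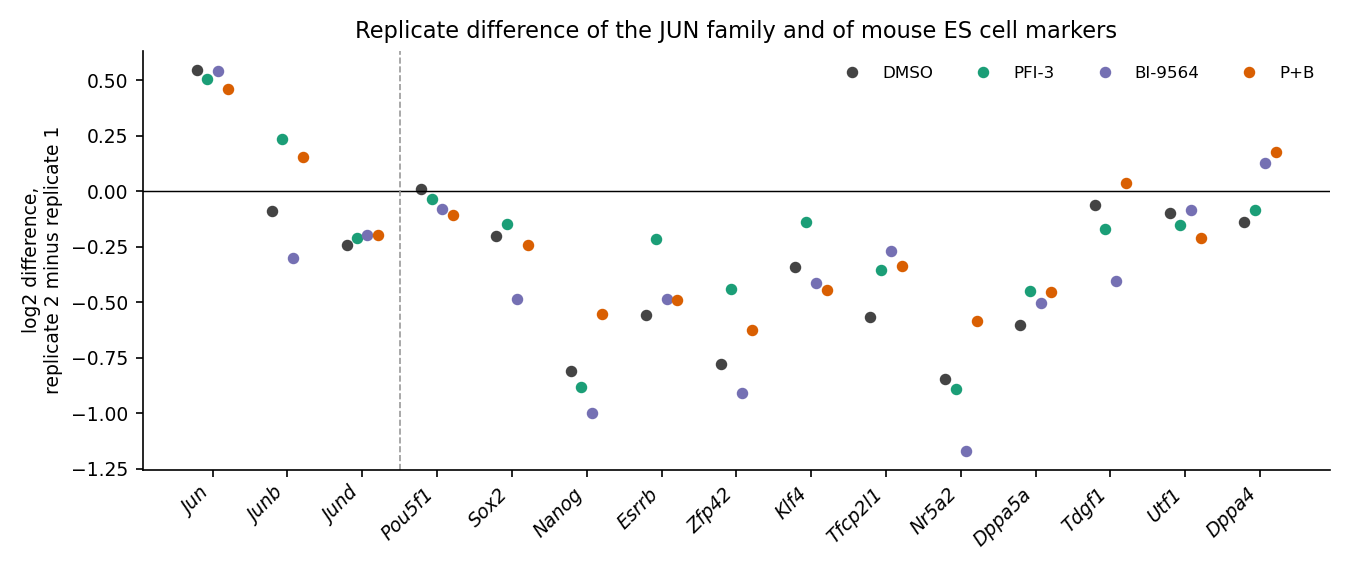
Log2 difference, replicate 2 minus replicate 1, on the log2(TPM + 1) scale, of the JUN family (left of the dashed line) and of 12 ES cell markers, with a point for each treatment. All 4 points of *Jun* lie near 0.5, those of *Jund* near −0.2 and those of *Junb* on both sides of 0, while most markers lie below 0.

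The genes that JUN proteins pair with were followed next. This list and those after it were chosen with earlier results of these data known. Their counts beside the shares of all genes are therefore a description and not a test. Of 19 dimer partners, 10 passed the filter on low values, and 3 of these were called lower with P+B and none higher, where 2.72% of all tested genes were called lower. *Fosl1*, which encodes FRA1, was at 47 and 67 TPM in DMSO, while PFI-3 gave 29 and 35, BI-9564 gave 28 and 43 and P+B gave 12 and 9 (log2 difference of P+B from DMSO −2.33 ± 0.254, adjusted p = 0.00296). *Fosl2*, which encodes FRA2, was at 35 and 34, 24 and 29, 35 and 33, and 19 and 14 TPM in the same order (−1.04 ± 0.174, adjusted p = 0.0169). *Atf3*, a stress-induced partner, was at 29 and 32, 17 and 20, 29 and 34, and 10 and 13 TPM (−1.34 ± 0.181, adjusted p = 0.0066). In all 3 of these genes, which were named because they were called, both P+B libraries were below the 6 others. How many of all tested genes do so was not counted. Without each library in turn *Fosl1* stayed called (adjusted p at most 0.0463), *Fosl2* was lost without DMSO replicate 1 (0.107), DMSO replicate 2 (0.0986) or P+B replicate 2 (0.11), and *Atf3* without DMSO replicate 1 (0.0587), DMSO replicate 2 (0.0678) or P+B replicate 1 (0.0533). With no filter on low values, 2 partners and not 3 were called with P+B against DMSO. *Fosl1* was also called lower in P+B than with PFI-3 (−1.53) and *Atf3* lower than with BI-9564 (−1.38). With the block *Atf3* was also called lower than with PFI-3 and higher with BI-9564 than with PFI-3, and *Fosl1* and *Fosl2* lower than with BI-9564. No partner was called in these comparisons between treatments with a filter of a mean of at least 1, no filter, no trend or only the groups compared, nor when any of the 8 libraries was left out.

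The other partners did not share this pattern, and the median log2 difference of the 10 was −0.07, beside 0.06 for all tested genes. *Atf2*, a JNK target that pairs with JUN at the CREB type of site, was at 44 to 57 TPM in all libraries (P+B against DMSO 0.01 ± 0.142, adjusted p = 0.984). *Atf4*, a factor of the amino acid stress response, was at 227 to 419 TPM and was called lower with BI-9564 than with PFI-3 (−0.76, adjusted p = 0.0207), a call lost in the same settings. *Fos* and *Fosb*, the classical immediate early partners, were at 2 TPM or less in every library. None of the 10 was called with PFI-3 or BI-9564 against DMSO.

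Of 20 genes of JNK signalling, which phosphorylates and activates JUN, 17 were tested, and 1 rose and 1 fell with P+B (median 0.25), where 1.28% of all tested genes were called higher and 2.72% lower and the median was 0.06. *Dusp1*, a phosphatase that switches off JNK and p38, was at 331 and 350 TPM in DMSO, while PFI-3 gave 252 and 263, BI-9564 gave 293 and 263 and P+B gave 156 and 139 (−1.20 ± 0.0922, adjusted p = 0.001). It was also called lower in P+B than with PFI-3 (−0.80) or BI-9564 (−0.91), where the call against BI-9564 was lost whichever of the 8 libraries was left out and that against PFI-3 without PFI-3 replicate 1 or 2 or P+B replicate 2. *Mapk9*, which encodes the kinase JNK2, rose to 39 and 38 TPM with P+B over 22 and 25 in DMSO (0.69 ± 0.124, adjusted p = 0.0209), and PFI-3 gave 36 and 35 and BI-9564 gave 36 and 36. *Mapk8*, which encodes JNK1, was at 34 to 58 TPM and was not called (0.25, adjusted p = 0.45), and *Mapk10*, for JNK3, was at 0 throughout. *Dusp1* stayed called without each library in turn (adjusted p at most 0.0232), while *Mapk9* was lost without DMSO replicate 1 or 2 (0.109 and 0.0667) or P+B replicate 1 or 2 (0.102 and 0.114).

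Of 15 genes of JUN turnover and cofactors, 14 were tested and 1 was called lower with P+B (median 0.01), beside the same 2.72% of all genes. *Trib1*, a pseudokinase that recruits the ubiquitin ligase COP1, was at 44 and 48 TPM in DMSO, while PFI-3 gave 32 and 38, BI-9564 gave 32 and 42 and P+B gave 16 and 22 (−1.25 ± 0.195, adjusted p = 0.0122), and it was lost without DMSO replicate 1 or 2 (0.0847 and 0.0986) or P+B replicate 1 (0.0859), and with no filter on low values. *Fbxw7*, a substrate adaptor for the destruction of JUN, was at 18 to 27 TPM and was not called (−0.11, adjusted p = 0.738). With the block *Det1*, another part of the COP1 ligase, was called higher with P+B (0.79, adjusted p = 0.0449), and *Trib1* was also called lower in P+B than with PFI-3 or BI-9564. Of 12 regulators of *Jun* and *Junb* transcription, 10 were tested and 1 was called lower (median 0.14), again beside 2.72%. *Atf1*, a factor that binds the CREB type of site, fell to 100 and 95 TPM in the P+B libraries, under 188 and 237 in DMSO (−1.11 ± 0.116, adjusted p = 0.00282), while PFI-3 gave 181 and 187 and BI-9564 gave 128 and 136, and was also called lower in P+B than with PFI-3 (−0.91), a call lost without either PFI-3 library or either P+B library. Against DMSO it stayed called without each library in turn (adjusted p at most 0.041). With the block *Atf1* was called lower and *Mapk9* higher with BI-9564 than with DMSO. *Srf*, which drives immediate early genes, was at a log2 difference of 0.47 (adjusted p = 0.108).

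**Figure D4:**
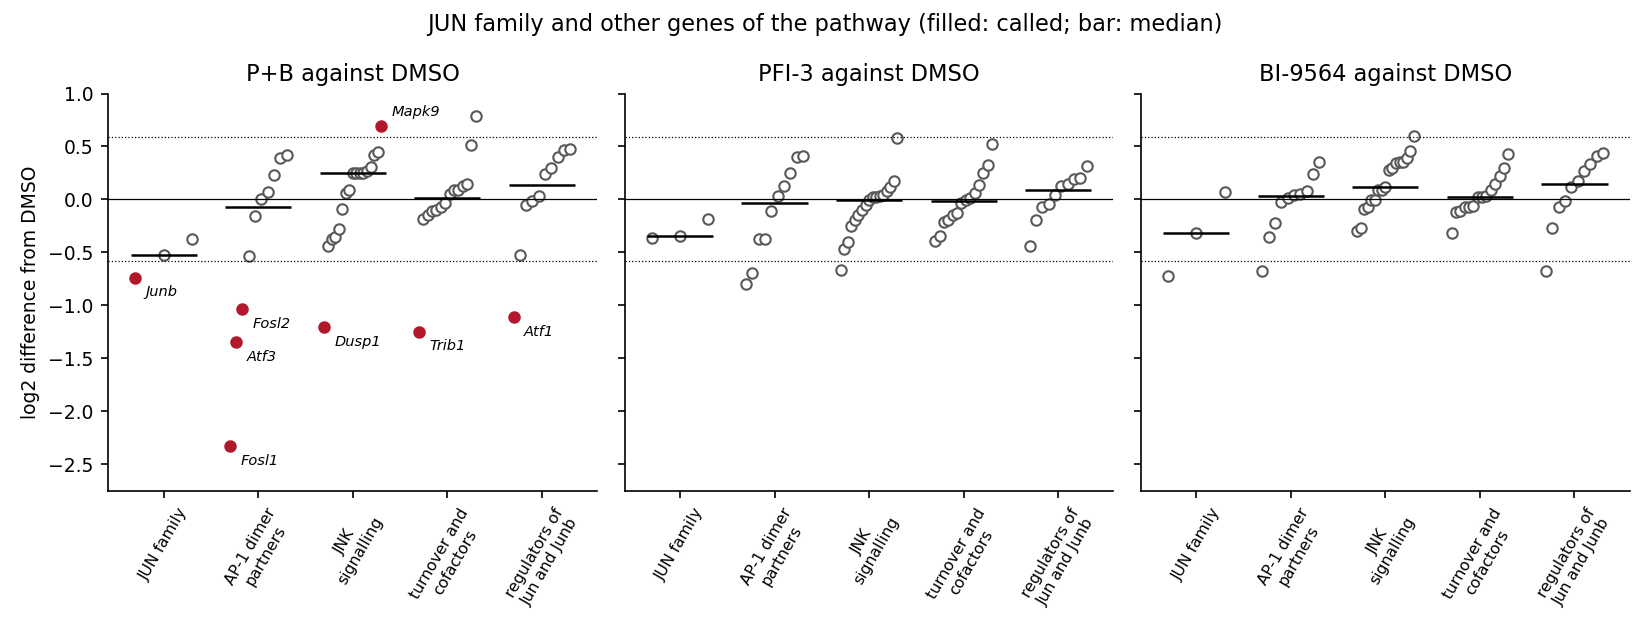
Log2 differences from DMSO of the tested genes of the JUN family and of 4 lists of the pathway, for P+B, PFI-3 and BI-9564, on the log2(TPM + 1) scale. Filled points were called (adjusted p under 0.05 and a fold of at least 1.5, dotted lines), open points were not, and bars are medians. With P+B, *Junb*, *Fosl1*, *Fosl2*, *Atf3*, *Dusp1*, *Trib1* and *Atf1* lie below and *Mapk9* above, and with the single compounds no point is filled.

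The genes whose pattern was most like that of a member were named by Pearson's r over the 8 libraries, which share treatments and replicate series, so r is a description. For *Jun* they were *mt-Co3*, a mitochondrial subunit of cytochrome oxidase (r = 0.971), *Kpnb1*, a nuclear import receptor (0.964), and *Sf3b3*, a splicing factor subunit (0.959), all with replicate 2 above replicate 1 in each group. For *Junb* they were *Hspg2*, the proteoglycan perlecan (0.976), *Itpkc*, an inositol phosphate kinase (0.976), and *Ergic1* (0.973). For *Jund* they were *AU015836* (0.99), the myosin gene *Myo1e* (0.988) and *Zc3hav1*, an antiviral RNA-binding protein (0.985). Between the members r was 0.768 for *Junb* and *Jund*, 0.119 for *Jun* and *Junb* and −0.138 for *Jun* and *Jund*.

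Genes around the members were looked at within 50 kb. Of 6 neighbours of *Jun*, none passed the filter on low values, and *Junos*, which overlaps it in antisense, was at 0 in 7 libraries and at 1 in P+B replicate 1. Of 10 neighbours of *Junb*, 5 were tested and none was called with P+B (log2 differences −0.34 to −0.05). *Prdx2*, at a mean of 323 TPM, overlaps the end of a noncoding *Junb* transcript on the other strand. Of 6 neighbours of *Jund*, 2 were tested and none was called (−0.44 and −0.05), and *Gm11175*, antisense within *Jund*, was at 0 in 7 libraries and at 21 TPM in BI-9564 replicate 1. Whether reads were counted by strand is not given in the sources used here, so reads of a member and its antisense partner cannot be told apart.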

How the data were processed

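RNA-seq of 8 libraries was analysed, from 4 groups of 2, grouped by their labels. Libraries were made with a VAHTS mRNA-seq kit and sequenced on a NextSeq500. The submitters' processing notes name bcl2fastq, Bowtie2 2.2.5, RSEM 1.3.0 and the build mm10, and the annotation and how decimals were removed are not given in the sources used here. The values the authors deposited are a score per gene, namely TPM made whole numbers, with library sums of 991574 to 991897. TPM keeps no depth, so depth and counting error are unknown, no interval from counting is given, and no count test was run.

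Values were analysed as log2(TPM + 1) with limma 3.58.1 in R 4.3.3 (eBayes with a trend) on 10222 genes, those whose mean was 5 or more, all groups together, with 4 residual degrees of freedom. P-values were two-sided and adjusted by Benjamini-Hochberg within each of 8 comparisons, and a gene was called at an adjusted p under 0.05 and a fold of at least 1.5. An exact permutation test of 2 against 2 libraries cannot go below p = 0.333 and was not used. The script was tested on simulated data without a replicate effect, with planted differences larger than those of the members. Only treatment comparisons without the block were checked in it. Differences between replicates were only weakly alike across genes in each of 6 pairings of the groups (Pearson's r 0.143 to 0.236). On this weak ground the numbers, which the labels give, were taken to pair the samples, and a fit with the replicate block was run as well. Nothing in the labels says that replicates were separate cultures, so p-values measure only the spread between these libraries.

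Named were the members, all genes called in lists from general knowledge (at most 6 per list and comparison), the 3 genes most correlated with each member, and neighbours within 50 kb. *Atf2*, *Fos*, *Fosb*, *Mapk8*, *Mapk10*, *Fbxw7*, *Srf* and *Pou5f1* were added after their values were seen. The members and lists were chosen with earlier results of these data known. COP1 is the row *Rfwd2*, and of the 2 rows named *Map2k7* the first was used. Alternatives were other pseudocounts, filters, scalings and thresholds, no trend, the block, only the groups compared, and leaving out each library. Promoters and motifs came from RefSeq (GRCm38.p6) and positions from GENCODE M21, and proteins were translated and aligned with Biopython 1.88.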

Additional observations from a re-analysis of the deposited data

How the results depend on the processing

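The fall of *Junb* with P+B, −0.74 in log2, kept its value but lost its call with a filter of a mean of at least 1 (−0.74, adjusted p = 0.052), no filter (−0.74, 0.0799), no trend (−0.74, 0.0531) and only the groups compared (−0.74, 0.129). Without each library in turn it ran from −0.81 to −0.66. *Jund* with P+B was called after median centring (−0.62, adjusted p = 0.0279). The *Junb* replicate difference changed sign with quantile normalization (0.014) and ran from −0.080 to 0.098 without each library. Other differences near 0 also changed sign without some libraries, with ranges of −0.20 to 0.34 for *Jun* with BI-9564 against DMSO, −0.27 to 0.23 for *Jun* in P+B against PFI-3, −0.17 to 0.13 for *Junb* in P+B against BI-9564, and −0.36 to 0.18 for *Jun* and −0.15 to 0.10 for *Jund* in the interaction. The cause was not tested.

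With the replicate block, *Junb* with P+B stayed called (−0.74, adjusted p = 0.0224), and no other member became called. The number of genes called with P+B against DMSO was 409, and it was 718 with the block, 201 with no filter, 124 at an adjusted p under 0.01, 0 with only the groups compared (1962 at an unadjusted p under 0.05, limma) and 68 to 268 without each library. Over all alternatives it ran from 0 to 156 for BI-9564 against DMSO, 0 to 351 and 0 to 82 for P+B against PFI-3 and BI-9564, 0 to 151 for BI-9564 against PFI-3 and 32 to 385 between replicates. With the block it rose from 11 to 156 for BI-9564 against DMSO, from 134 to 351 and from 20 to 82 for P+B against PFI-3 and BI-9564, and from 11 to 151 for BI-9564 against PFI-3. The shares of tested genes called with the block were 1.53%, 3.43%, 0.802% and 1.48% in the same order. No called *Fosl1*, *Fosl2*, *Atf3*, *Mapk9*, *Dusp1*, *Trib1* or *Atf1* was left with only the groups compared. The lower *Dusp1* in P+B than with PFI-3 or BI-9564 and the lower *Atf1* in P+B than with PFI-3 were also lost with no filter, with no trend and with only the groups compared. The last setting could not be run for the interaction and the replicate comparison, nor the block for the latter. TPM without depth limits what can be said of low genes such as *Junb*, where a step of 1 TPM is a few percent of the value.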
